A study of Mus musculus with 23 samples.

Results

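Receptors and effector markers of type 1 conventional dendritic cells (cDC1), 10 genes for surface receptors, adhesion molecules and an enzyme, were followed in cells sorted from mouse melanomas. They are Xcr1, Clec9a, Ly75, Tlr3, Flt3, Btla, Itgae, Cadm1, Cd24a and Naaa. The members were taken by gene name, and all 10 were among the 13572 gene rows of the deposited count table. The PGE2-deficient tumours were grown from BRAFV600E melanoma cells that lack Ptgs1 and Ptgs2, the genes of the cyclooxygenases that start prostaglandin synthesis. The control tumours were grown from BRAFV600E melanoma cells without that knockout. Whether either line is a single clone is not given in the sources used here. All hosts were wild-type C57BL/6 mice, so host cells in either kind of tumour kept Ptgs1 and Ptgs2, and the hosts' age and sex were not given. On day 6 after subcutaneous injection, live CD45+ cells were gated as CD11c+ and MHC-II+, then as CD103+ and CD11b-. Each library was made by Smart-seq3 from a pool of 10 such cells. There were 11 pools from 4 mice with PGE2-deficient tumours and 12 pools from 4 mice with control tumours, and the labels call pools of a mouse technical replicates. Because CD103, the product of Itgae, was part of the sorting gate, the level of Itgae was measured in cells already chosen for its protein.

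cDC1 are the dendritic cells that take up material from dying cells and present it to CD8 T cells. XCR1 lets them follow a chemokine made by activated T cells and natural killer cells, CLEC9A binds actin filaments exposed by dead cells, and TLR3 senses double-stranded RNA in endosomes. FLT3 is the receptor for the growth factor on which dendritic cell development depends. In mouse tumours Xcr1 and Clec9a are commonly used to tell cDC1 from cDC2 and macrophages, whereas Flt3 is shared with cDC2 and plasmacytoid dendritic cells (pDC).

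Pools held 34088 to 98554 counts in PGE2-deficient tumours and 25571 to 57523 counts in control tumours. All 7 genes of the cDC1 marker list were detected in both groups, with a summed level of 2939 to 4405 CPM (counts scaled to the TMM-adjusted total of tested genes) in mice with PGE2-deficient tumours and 1334 to 2469 CPM in control mice. Xcr1, Clec9a, Tlr3, Naaa and Cadm1 of that list are members, so its sum is no measure separate from theirs. Irf8, given again below, and Batf3 complete the list. Irf8 and Naaa weighed most in its sum. Batf3 averaged 147 ± 33.5 CPM in the PGE2-deficient group and 126 ± 37.8 CPM in the control group (SD over mice). Its log2 fold change of 0.17 was not called (edgeR adjusted p = 0.845). Markers of other cells were present in some pools. The 6 cDC2 markers held 40 counts in the PGE2-deficient group and 154 in the control group (29.2 to 166 CPM per mouse against 230.8 to 565 CPM), and Clec4a4 was at 0 in the PGE2-deficient group. The 9 macrophage markers held 25 and 170 counts (8.25 to 97.5 CPM against 0 to 776 CPM), with C1qb at 0 in the PGE2-deficient group. The 6 pDC markers held 30 and 221 counts (33.0 to 107 CPM against 57.5 to 1004 CPM), with Siglech, Cox6a2, Ly6d and Klk1 at 0 in the PGE2-deficient group. Summed counts of these 3 lists were lower in the PGE2-deficient group, with mouse ranges that overlapped for macrophage and pDC markers and not for cDC2 markers. The pDC marker Tcf4 was the only gene of these 3 lists with enough counts to be tested. It was called lower in the PGE2-deficient group (log2 fold change −2.08, edgeR adjusted p = 0.0163). Of 7 T cell markers in the table, Cd4 was at 0 in both groups and the others together held 56 counts in the PGE2-deficient group and 11 in the control group (0 to 239 CPM against 0 to 127 CPM). Genes of mature dendritic cells held 662 and 274 counts (699 to 2515 CPM against 391 to 823 CPM), and genes of cycling cells 281 and 51 (421 to 633 CPM against 62.7 to 196 CPM). Of 3 tested genes of mature cells 1, Cacnb3, was called higher in the PGE2-deficient group (log2 fold change 1.65, edgeR adjusted p = 0.0432). Top2a, the only tested gene of cycling cells, was also called higher (2.25, edgeR adjusted p = 0.00245). Of the natural killer cell markers Klrb1c was in the table, with 1 count in the PGE2-deficient group and 3 in the control group, and of the B cell markers Cd79b, at 0 in both. The melanoma genes Pmel and Dct held 1 count together in the PGE2-deficient group and 9 in the control group, and neutrophil markers were not analysed here. The part of these differences in the results on the 10 genes was not tested, other than by leaving out pools as described for each gene. In pools of sorted cells, fewer cells expressing a gene and less RNA of it per cell cannot be told apart.

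Of the 10 members, 9 passed the filter on low counts and were tested, and Cadm1 did not. Xcr1, Tlr3 and Naaa were called higher in cells from PGE2-deficient tumours, and no member was called lower, where a call is a Benjamini-Hochberg adjusted p below 0.05 in edgeR's quasi-likelihood test. Among all 2076 tested genes 2.7% were called higher and 2.26% lower, 4.96% in either direction. In the same 3 genes all 4 mice with PGE2-deficient tumours lay above all 4 control mice, which held for 4.91% of the tested genes (another 5.73% were separated in the other direction). Clec9a, Ly75, Flt3, Btla, Itgae and Cd24a were not called and their groups overlapped.

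**Figure D1:**
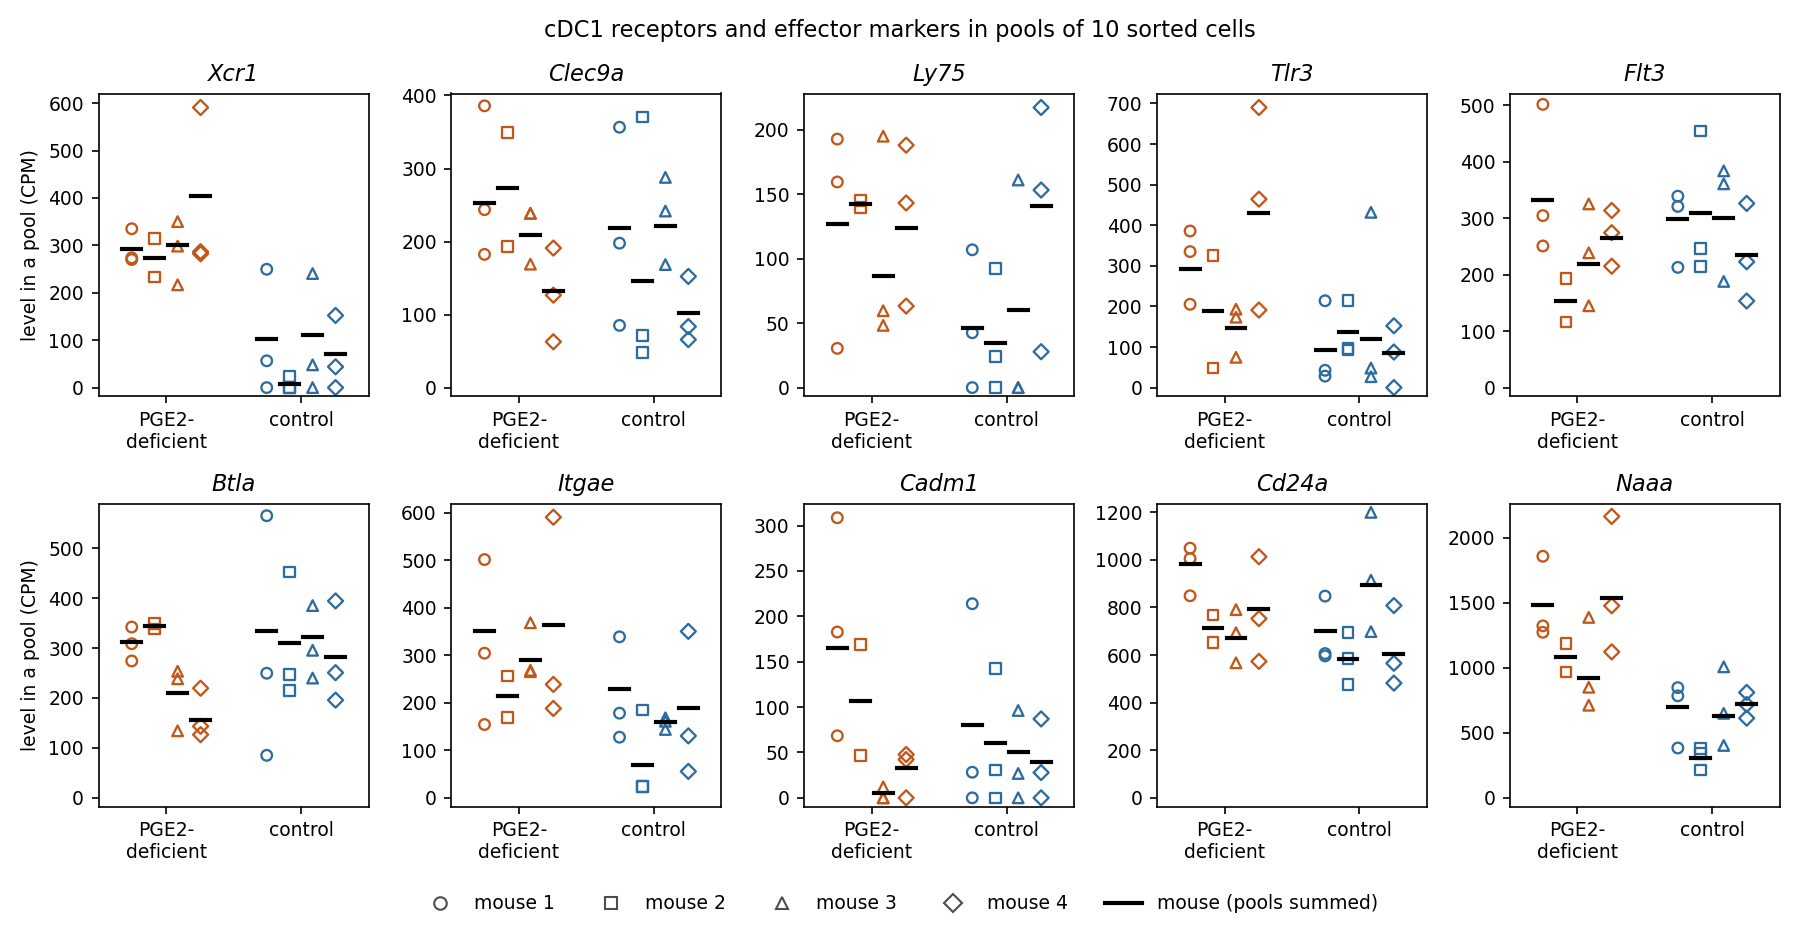
Level of each member in CPM (y axis, from 0) in every pool of 10 cells, with pools of PGE2-deficient tumours left of control pools in each panel. Marker shapes stand for mice within a group and black bars for the pools of a mouse summed. Xcr1 was between 217 and 591 CPM in the pools of PGE2-deficient tumours and between 0 and 249.6 CPM in control pools, whereas Cd24a, Flt3 and Btla overlapped widely.

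Xcr1 (ENSMUSG00000060509, minus strand of chromosome 9 from 123852315 to 123862029 in GRCm38, protein-coding) encodes the receptor for the chemokine XCL1. Its level was 292, 273, 301 and 404 CPM in the 4 mice with PGE2-deficient tumours, against 104, 8.60, 110.4 and 70.6 CPM in the 4 control mice. The lowest mouse of the PGE2-deficient group was thus well above the highest control mouse, and control mouse 2, with a single Xcr1 count in 3 pools, was far below the other controls. The mean was 318 ± 59.1 CPM in the PGE2-deficient group and 73.3 ± 46.5 CPM in the control group (SD, n = 4 mice each). Xcr1 changed by a log2 fold change of 2.16 ± 0.38 (SE; edgeR adjusted p = 0.00242), the 14th largest increase among the tested genes. It stayed between 1.75 and 2.43 when any 1 mouse was left out, with edgeR adjusted p from 0.000942 to 0.0120.

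Detection also differed between the groups, whose pools differed in depth as given above. All 11 pools of PGE2-deficient tumours held Xcr1, with a lowest, median and highest count of 7, 12 and 29. Of the 12 control pools 5 held none, and the median was 1 and the highest 10. The 5 control pools without Xcr1 came from all 4 control mice, 2 of them from mouse 2. A count of 0 in these pools allowed a level of up to 71.8 to 128 CPM (3 counts, counting error only), below the lowest Xcr1 level in any pool of the PGE2-deficient group. The same 5 control pools held 2, 2, 12, 9 and 3 counts of Clec9a and 9, 9, 11, 15 and 22 of Naaa. In the same order they held 4, 23, 7, 74 and 9 counts of macrophage, pDC and T cell markers. Whether the mix of cells in these pools bears on their Xcr1 counts was not tested.

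Clec9a (ENSMUSG00000046080, plus strand of chromosome 6 from 129408862 to 129424763), the receptor for dead cells, was detected in all 23 pools. Its level was 253, 273, 209 and 132 CPM in the PGE2-deficient group, against 219, 146, 221 and 102 CPM in the control group. The lowest mice of both groups were close to each other, and the ranges overlapped over most of their length. The log2 fold change of 0.34 ± 0.31 was not called (edgeR adjusted p = 0.609). Exons of Clec9a and of its neighbour Clec1b overlap on the same strand in the annotation, and Clec1b had 20 counts in the PGE2-deficient group and 12 in the control group. How counts in the shared stretch were assigned is not given in the sources used here.

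The counts of Xcr1 and Clec9a in the same pools were also set against each other, as a description, since the pair was chosen with the results for both genes known. The log2 ratio of Xcr1 to Clec9a counts, with 0.5 added to each count, needs no scaling between libraries. It was 0.20, 0.00, 0.52 and 1.58 in the 4 mice of the PGE2-deficient group, against −1.04, −3.54, −0.97 and −0.51 in the 4 control mice. No control mouse reached a ratio of 1 to 1, and no mouse of the other group was below it. The mean difference was 2.09 on the log2 scale. Xcr1 counts exceeded Clec9a counts in 8 of 11 pools of PGE2-deficient tumours and in 1 of 12 control pools. Without control mouse 2 the difference was 1.41.

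**Figure D2:**
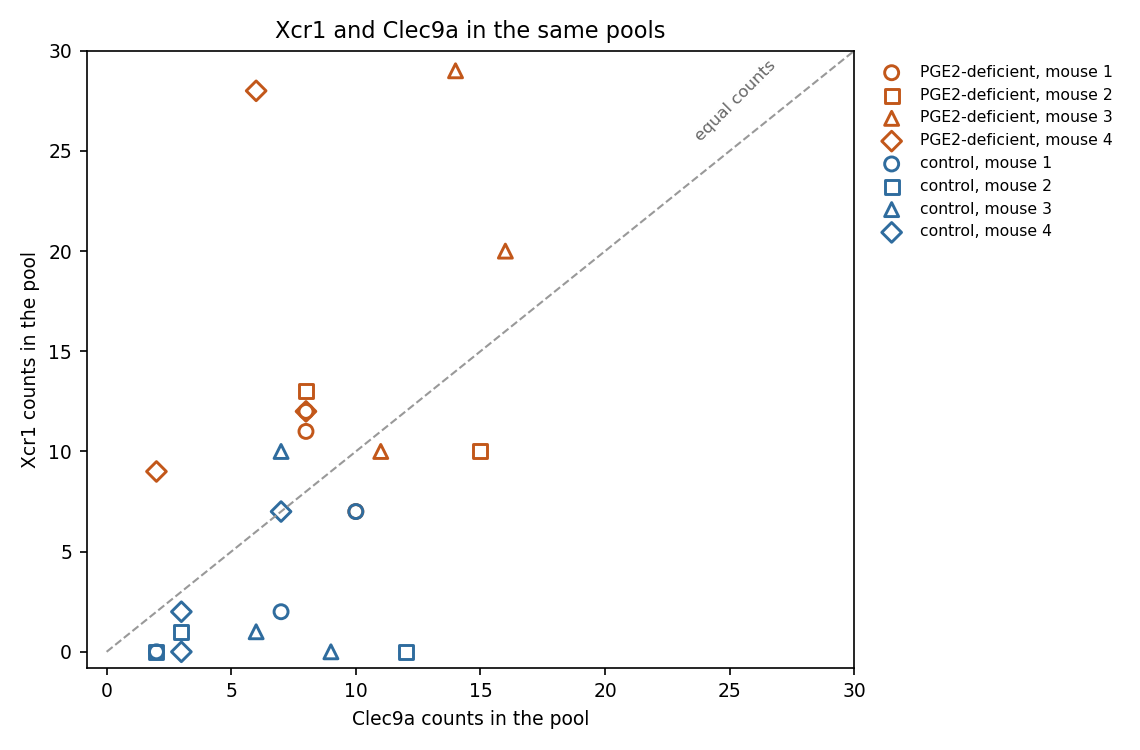
Counts of Xcr1 (y axis) against counts of Clec9a (x axis) in the same pool, 1 point per pool, with colour for the group and shape for the mouse. The dashed line marks equal counts. Of the pools of PGE2-deficient tumours 8 of 11 lie above the line, against 1 of 12 control pools, and some points coincide.

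Tlr3 (ENSMUSG00000031639, minus strand of chromosome 8 from 45395665 to 45411080), the endosomal sensor of double-stranded RNA, had 292, 189.8, 148 and 429 CPM in the PGE2-deficient group, against 92.0, 138, 120.4 and 86.2 CPM in the control group. The groups did not overlap, but mouse 3 of the PGE2-deficient group was close to the highest control mouse. The mean was 265 ± 125 CPM against 109 ± 24.2 CPM (SD, n = 4 mice each), and the log2 fold change 1.25 ± 0.35 (edgeR adjusted p = 0.0448). Pools varied widely within both groups, from 48.4 to 690.0 CPM in PGE2-deficient tumours and from 0 to 432 CPM in control tumours. The call was close to the threshold. It was lost without PGE2-deficient mouse 1 (edgeR adjusted p = 0.0780) or 4 (0.185), and without control mouse 1 (0.0873), 2 (0.0609), 3 (0.0816) or 4 (0.103). Over these 6 fits the log2 fold change ran from 0.89 to 1.38. An antisense gene, Gm45542, overlaps exons of Tlr3, and whether strand was used in counting is not given in the sources used here.

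Naaa (ENSMUSG00000029413, minus strand of chromosome 5 from 92257659 to 92278170) encodes a lysosomal amidase that breaks down fatty acid ethanolamides. It was the most counted member, with 861 counts in all. Its level was 1481, 1079, 918 and 1535 CPM in the PGE2-deficient group, against 702, 309.7, 632 and 721 CPM in the control group. All mice with PGE2-deficient tumours were above all control mice, and control mouse 2 was again the lowest. Pool counts ran from 33 to 70, with a median of 58, in PGE2-deficient tumours and from 9 to 37, with a median of 21.5, in control tumours. The pool ranges in counts overlapped between 33 and 37. In CPM, which takes depth into account, pools ran from 712 to 2164 in PGE2-deficient tumours and from 215 to 1007 in control tumours. These ranges overlapped more widely. Naaa changed by a log2 fold change of 1.08 ± 0.23 (edgeR adjusted p = 0.0104), and it kept its call in each of the 8 fits without 1 mouse (0.85 to 1.20, edgeR adjusted p from 0.00493 to 0.0483).

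Pools with 10 or more counts of macrophage, pDC and T cell markers together were then left out, which removed 5 pools of PGE2-deficient tumours and 7 control pools and kept all 8 mice. The kept pools still held 1 to 9 counts of these markers, and cDC2 markers were not part of the rule. Xcr1 still had 73 counts in the 6 remaining pools of PGE2-deficient tumours and 17 in the 5 remaining control pools, of which 3 had none. Its log2 fold change was 1.58 and was no longer called (edgeR adjusted p = 0.268, where all alternatives ran from 4.03e-07 to 0.268). Naaa changed by 1.17, just outside the threshold (edgeR adjusted p = 0.0512, where all alternatives ran from 0.000122 to 0.0512). Tlr3, Itgae and Ly75 did not pass the count filter there. Of the 6 members still tested none was called, and 5 higher and 6 lower genes were called among 866. Clec9a changed by 0.03 in these pools.

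The 250 bases before the RefSeq transcription start (GRCm38.p6) are shown for the 3 genes that were called and for Clec9a, the marker of the same cells that was not. Capitals mark AANNGAAA, a core motif of interferon regulatory factors, on either strand, and lower case the rest.
Xcr1 (chr9:123862030-123862279, minus strand): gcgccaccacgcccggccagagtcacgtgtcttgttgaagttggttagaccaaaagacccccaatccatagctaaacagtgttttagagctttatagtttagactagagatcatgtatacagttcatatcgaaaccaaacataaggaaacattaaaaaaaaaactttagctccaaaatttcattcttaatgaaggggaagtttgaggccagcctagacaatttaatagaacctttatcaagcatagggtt
Tlr3 (chr8:45410381-45410630, minus strand): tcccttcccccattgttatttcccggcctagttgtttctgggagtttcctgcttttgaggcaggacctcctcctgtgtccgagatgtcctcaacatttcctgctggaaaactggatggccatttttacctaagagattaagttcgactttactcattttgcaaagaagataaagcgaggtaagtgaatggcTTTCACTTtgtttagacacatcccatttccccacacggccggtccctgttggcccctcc
Naaa (chr5:92278182-92278431, minus strand): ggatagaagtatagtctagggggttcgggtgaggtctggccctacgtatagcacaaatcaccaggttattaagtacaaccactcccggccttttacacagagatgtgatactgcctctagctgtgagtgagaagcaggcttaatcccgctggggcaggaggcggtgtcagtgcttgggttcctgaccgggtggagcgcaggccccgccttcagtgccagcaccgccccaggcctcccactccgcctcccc
Clec9a (chr6:129408612-129408861, plus strand): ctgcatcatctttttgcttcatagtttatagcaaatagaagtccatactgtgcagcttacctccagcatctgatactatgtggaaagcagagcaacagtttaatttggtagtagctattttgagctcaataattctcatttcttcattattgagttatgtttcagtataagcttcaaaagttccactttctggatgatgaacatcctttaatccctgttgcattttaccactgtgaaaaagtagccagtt
Among these 4 windows the motif was found in that of Tlr3, at 1 place on the reverse strand starting 59 bases before the start site. Of 32851 RefSeq promoter windows of this length 21.3% held it. The AP-1 motif TGANTCA, searched on both strands, was in none of the 4 windows and in 6.75% of all windows. The windows also differed in base composition. Xcr1 and Clec9a had 38.8% and 35.6% G and C, below the lower quartile of all windows (45.2%), whereas Tlr3 had 48.0% and Naaa 59.2%. The RefSeq start of Tlr3 lies inside the GENCODE gene, so its window is within the annotated gene.

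Ly75 (DEC-205, chromosome 2), an endocytic lectin-like receptor used to deliver antigen to dendritic cells, was a low-count member. It had 127, 142, 86.7 and 124 CPM in the PGE2-deficient group, against 46.0, 34.4, 60.2 and 141 CPM in the control group. Control mouse 4 stood level with the PGE2-deficient group and the other 3 control mice below it. Ly75 was detected in all 11 pools of PGE2-deficient tumours, with 1 to 9 counts, and in 8 of 12 control pools, with at most 10. The log2 fold change of 0.67 ± 0.41 was not called (edgeR adjusted p = 0.424), and without control mouse 4 it was 1.31 (edgeR adjusted p = 0.131). An antisense gene, Gm13571, overlaps exons of Ly75.

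Flt3 and Btla had values in the other direction. Flt3 (chromosome 5), the receptor tyrosine kinase of the dendritic lineage, had 331, 154, 219 and 264 CPM in the PGE2-deficient group, against 299, 309.7, 301 and 235 CPM in the control group. Its highest mouse was in the PGE2-deficient group, as was its lowest. For Flt3 the log2 fold change was −0.23 ± 0.26 (edgeR adjusted p = 0.697). Btla (chromosome 16), a co-inhibitory receptor of lymphocytes and dendritic cells, had 312, 344, 209 and 157 CPM in the PGE2-deficient group, against 334, 309.7, 321 and 282 CPM in the control group. The control mice lay close together, with a coefficient of variation of 7.03% against 34.2% in the PGE2-deficient group. For Btla the log2 fold change was −0.31 ± 0.27 (edgeR adjusted p = 0.579). Neither gene was called, and both were detected in all 23 pools.

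Among the adhesion molecules, Itgae (chromosome 11), the alpha chain of the integrin that binds E-cadherin, had 351, 214, 291 and 363 CPM in the PGE2-deficient group, against 230.1, 68.8, 161 and 188 CPM in the control group. The groups overlapped by a single mouse on each side. The log2 fold change of 0.93 ± 0.31 was not called (edgeR adjusted p = 0.0948), and it passed the threshold in 1 of 17 alternatives, limma-voom over the pools (1.16, limma adjusted p = 0.0324). In that fit the correlation between pools of a mouse was estimated at −0.000588, so technical replicates counted almost as separate replicates. Every pool held Itgae, with 4 to 28 counts in PGE2-deficient tumours and 1 to 16 in control tumours.

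Cd24a (chromosome 10), a heavily glycosylated membrane protein, was detected in every pool. It had 984, 712, 674 and 792 CPM in the PGE2-deficient group, against 702, 585, 893 and 604 CPM in the control group. The ranges overlapped over most of their length, and the log2 fold change was 0.18 ± 0.19 (edgeR adjusted p = 0.670).

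Cadm1 (chromosome 9), an immunoglobulin-family adhesion molecule, held 31 counts in the PGE2-deficient group and 24 in the control group and did not pass the count filter. It had 17, 9, 1 and 4 counts in the 4 mice of the PGE2-deficient group, against 7, 7, 5 and 5 in the control mice. The spread was larger in the PGE2-deficient group, whose mice were both the highest and the lowest. In CPM the means were 77.6 ± 72.7 and 57.5 ± 17.6 (SD, n = 4 mice each), a difference of 20.1 (exact two-sided permutation test, p = 0.657). It was absent from 3 of 11 pools of PGE2-deficient tumours and from 4 of 12 control pools. Without PGE2-deficient mouse 1 the difference was −9.24 CPM. With a minimum count of 5 or no count filter Cadm1 entered the edgeR fit and was not called.

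**Figure D3:**
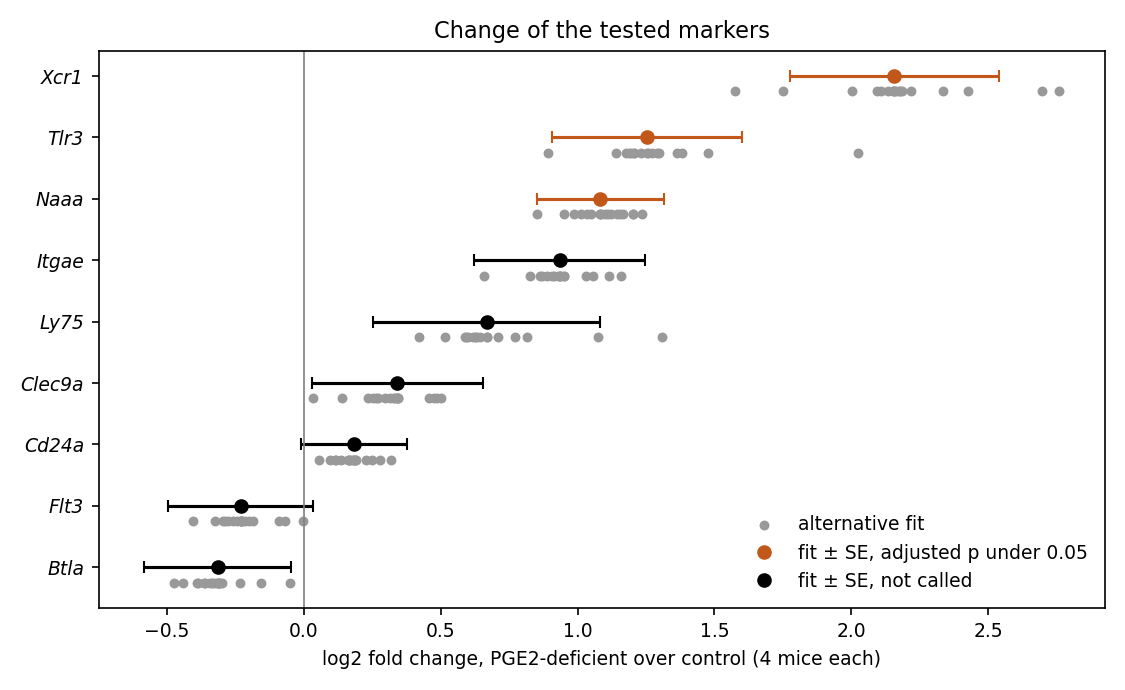
Log2 fold change, PGE2-deficient over control (x axis), of the 9 tested members, as the fitted value with its standard error (coloured where the edgeR adjusted p is under 0.05) and the alternative fits as grey points below it. Xcr1, Tlr3 and Naaa lie at 2.16, 1.25 and 1.08, Itgae, Ly75, Clec9a and Cd24a between 0.18 and 0.93, and Flt3 and Btla just below 0.

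Levels of different genes were compared per kilobase of exon length. In the PGE2-deficient group Naaa (337 ± 81.2 CPM per kb) and Cd24a (306 ± 53.6) were highest, with overlapping ranges. Then came Btla (75.2 ± 25.7), Xcr1 (71.3 ± 13.3), Itgae (66.5 ± 14.9), Clec9a (65.9 ± 19.0), Tlr3 (50.9 ± 24.1) and Flt3 (39.2 ± 12.1), among which each neighbour overlapped the next. Ly75 (17.4 ± 3.41) was apart from Flt3, and Cadm1 (7.44 ± 6.96) overlapped Ly75 (SD, n = 4 mice each).

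The control order differed at several positions. Cd24a (269.7 ± 54.7 CPM per kb) was above Naaa (159 ± 51.5) in every mouse, and their ranges did not overlap. Btla (91.8 ± 6.45), Clec9a (52.2 ± 17.6), Flt3 (46.4 ± 5.56), Itgae (35.3 ± 14.9) and Tlr3 (21.0 ± 4.65) followed. Xcr1 (16.5 ± 10.4) came at position 8, against position 4 in the PGE2-deficient group, before Ly75 (10.2 ± 6.99) and Cadm1 (5.51 ± 1.68). Apart from Cd24a over Naaa and Btla over Clec9a, neighbours in the control order overlapped. If the table counted molecules rather than reads, division by length would understate long genes such as Cadm1.

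**Figure D4:**
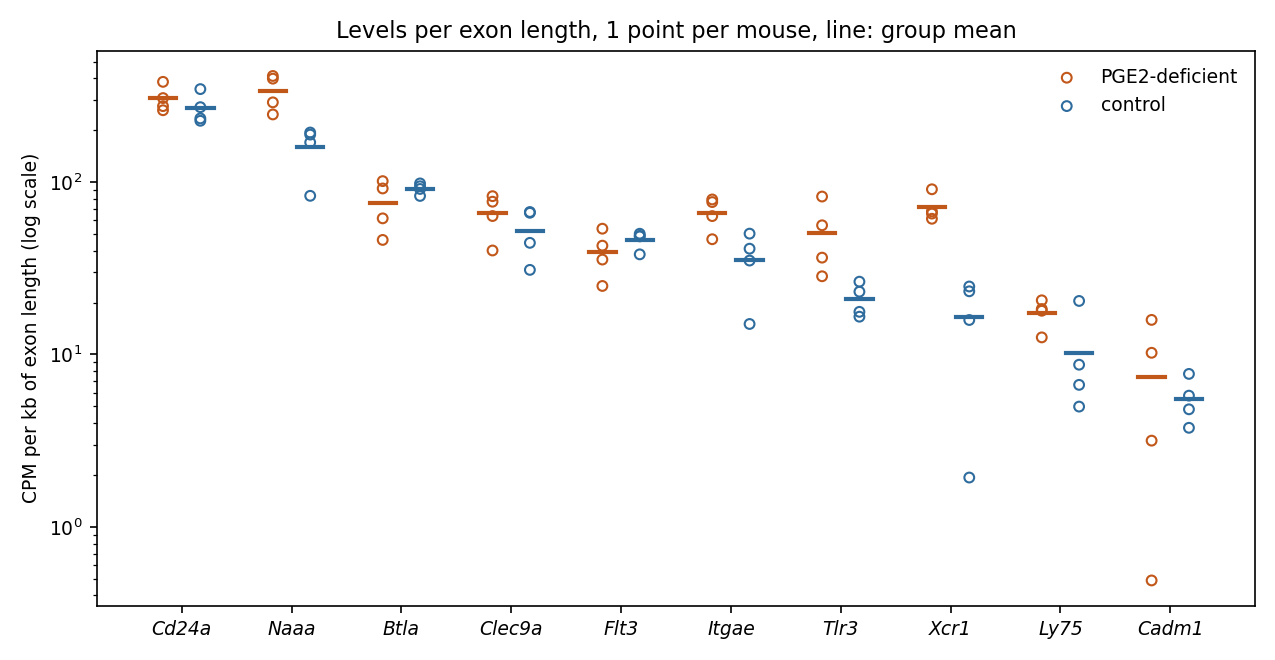
CPM per kb of exon length (y axis, log scale) of the 10 members, ordered by their mean in control mice, with 1 point per mouse, a line for the group mean and the PGE2-deficient group left of the control group. Naaa and Cd24a were highest in both groups, and Xcr1 was at 71.3 CPM per kb in the PGE2-deficient group against 16.5 in the control group.

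Summed over the 10 genes, a pool of PGE2-deficient tumours held 120 to 226 member counts (median 162) and a control pool 37 to 126 (median 83). In CPM the sums were 2716 to 4873 (median 3838) and 1575 to 3742 (median 2372), with overlapping ranges. Per mouse the sums were 3062 to 4590.3 CPM in the PGE2-deficient group and 1970.3 to 2870.5 CPM in the control group, which did not overlap. Naaa (mean 1254 against 591 CPM) and Cd24a (791 against 696 CPM) weighed most in these sums. The means of Btla and Flt3 were lower in the PGE2-deficient group, so the sums do not show a rise of every member. All 10 members were detected together in 8 of 11 pools of PGE2-deficient tumours and in 2 of 12 control pools, with at least 9 and at least 8 members in each pool of the 2 groups. The PGE2-deficient pools were also deeper, as given above, which bears on detection in counts.

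Which mouse was highest or lowest differed between members. In the control group mouse 2 was lowest in 5 members (Xcr1, Itgae, Naaa, Ly75 and Cd24a) and highest in Tlr3 and Flt3. Mouse 4 was lowest in the other 5 (Clec9a, Tlr3, Cadm1, Btla and Flt3) and highest in Naaa and Ly75. In the PGE2-deficient group mouse 4 was highest in Xcr1, Tlr3, Itgae and Naaa but lowest in Clec9a and Btla. Mouse 3 of that group was lowest in 5 members and highest in none, whereas its mouse 1 and control mice 1 and 3 were each highest in 3 members and lowest in none. The variance between pools of the same mouse, relative to that of counting alone, differed among members. It was 4.09 times the counting variance for Tlr3, 3.29 times for Naaa, 2.79 times for Itgae, 2.57 times for Xcr1 and 2.56 times for Ly75. It was 2.05 times for Clec9a, 1.57 times for Btla, 1.36 times for Cd24a and 1.34 times for Flt3, where the median over all tested genes was 1.72.

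Of 30 other genes associated with cDC1, 16 were tested, of which 3 were called higher and none lower (edgeR adjusted p under 0.05). Over all 2076 tested genes 2.7% were called higher and 2.26% lower. The median log2 fold change of the 16 was 0.44, against 0.01 over all tested genes. Of the 16, 13 were positive, where 1052 of all 2076 were. Irf8, the transcription factor that specifies the lineage, averaged 1510 ± 205 CPM in the PGE2-deficient group and 837 ± 296 CPM in the control group (log2 fold change 0.85, edgeR adjusted p = 0.0215). Id2, an inhibitor of E proteins needed for cDC1 development, averaged 1910 ± 447 and 994 ± 413 CPM (0.95, edgeR adjusted p = 0.0196). Ifi205, an interferon-inducible HIN200 family gene, averaged 2708 ± 748 and 1654 ± 241 CPM (0.72, edgeR adjusted p = 0.0325; SD, n = 4 mice each for all 3 genes).

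Of 27 ligands, partners and signalling genes of the members, 23 were in the table and 9 were tested. None was called at an edgeR adjusted p under 0.05, where 4.96% of all 2076 tested genes were called in either direction. Of the 9, 4 had positive and 5 negative log2 fold changes, and the median was −0.47. Over all tested genes 1052 were positive and the median was 0.01. The single partner tested was Itgb7, the beta chain that pairs with the Itgae product, with 118 ± 29.1 CPM in the PGE2-deficient group and 166 ± 18.9 CPM in the control group (log2 fold change −0.49, edgeR adjusted p = 0.431). In the TLR3 pathway, Irf7, a transcription factor of interferon genes, had 263 ± 119 and 105 ± 76.3 CPM (1.44, edgeR adjusted p = 0.0681), and Unc93b1, the chaperone that carries TLR3 to endosomes, 97.8 ± 27.3 and 161 ± 48.2 CPM (−0.67, edgeR adjusted p = 0.312). Syk, the kinase through which CLEC9A signals, had 44.8 ± 42.2 and 131 ± 50.4 CPM (−1.61, edgeR adjusted p = 0.0692), and Stat3, which acts after FLT3, 148 ± 59.1 and 219 ± 31.8 CPM (−0.64, edgeR adjusted p = 0.277). Asah1, an acid ceramidase related to NAAA, had 176 ± 45.7 and 169 ± 33.4 CPM (0.08, edgeR adjusted p = 0.915; SD, n = 4 mice each throughout).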

How the data were processed

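RNA was measured by Smart-seq3 in pools of 10 sorted cells. The authors deposited counts, whole numbers per gene and pool, with no normalization. The submitters' processing notes name STAR 2.5.4b and GRCm38 (mm10). Not given in the sources used here are the counting program, the strand setting and whether reads or molecules were tallied, so floors cover counting error only.

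Pools were summed per mouse (101017 to 230478 counts). The 2076 genes that passed filterByExpr at a minimum count of 10 held 80.6% of the counts and were tested with edgeR 4.0.16 (TMM, quasi-likelihood test, two-sided, Benjamini-Hochberg over all tested genes, threshold 0.05) in R 4.3.3. DESeq2 1.42.0 and limma 3.58.1 served as alternatives. CPM are counts over TMM-adjusted totals of tested genes, and a pool took the factor of its mouse. Lengths are unions of GENCODE M21 exons, and promoters come from RefSeq (7 of 10 members matched). Single values were compared by exact permutation over mice. Whether mice of a group were independent beyond being separate animals is not stated. No 2 pools agreed within counting noise (smallest chi-squared per degree of freedom 2.19). Mouse numbers recur in both groups and were not taken as pairs. The code of the fit was tested on simulated counts per mouse, with a dispersion shared by all genes and no variation between pools. Those settings are simpler than these data. All 10 members are named, and of the lists of cDC1-associated, partner and signalling genes every called gene or, where a list had none, the 2 tested genes with the smallest p. The members, lists and tests were chosen with earlier results of these data known.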

Additional observations from a re-analysis of the deposited data

Results flagged for a closer look

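Flt3 in control mouse 4 stood apart from the other control mice, at 235 CPM against 299 to 309.7 CPM in the other 3 (its gap to the next mouse, over the range of the 4, was above Dixon's 95% critical value). This was 1 of 22 groups of 4 mice examined, and chance marks about 1 in 20 groups.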

How the results depend on the processing

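The tested members kept their sign in all alternatives run. Xcr1 was called in 17 of 18 alternatives (log2 fold changes from 1.58 to 2.76), Naaa in 17 of 18 (0.85 to 1.24), and Tlr3 in 9 of 17 (0.89 to 2.03). Besides the fits named above, Tlr3 was lost with limma-voom over pools (limma adjusted p = 0.0763). The highest Xcr1 value, 2.76, came from that same limma-voom fit, in which pools of a mouse counted almost as separate replicates. No member was called lower in any alternative. Leaving out 1 mouse gave 2 to 3 members called higher, 31 to 67 genes called higher and 23 to 45 lower over the table (56 and 47 with all mice). With control mouse 2 omitted there were 31 higher and 25 lower genes. Lower genes numbered 31 when PGE2-deficient mouse 4 was omitted, 23 for control mouse 3 and 25 for control mouse 4. Without pools holding 10 or more counts of macrophage, pDC and T cell markers 0 members, 5 higher and 6 lower genes were called, from fewer pools and genes. Without a count filter 110 genes were higher and 84 lower, with technical replicates 2 and 3 alone 32 and 19, and with limma-voom 79 were lower. Upper quartile scaling gave 45 higher and 67 lower genes and the same 3 members. Same-numbered mice of the 2 groups share a number alone, their deviations from the group means correlating by −0.09 to 0.10 across genes. With that number as replicate block 28 genes were lower, the Tlr3 call was lost (1.21, edgeR adjusted p = 0.0770), and no other member changed its call. The ratio of Xcr1 to Clec9a, a pair chosen with its results known, is no added support for Xcr1. Over all mice it had an exact permutation p of 0.0286, the smallest that the 70 assignments of mice allow. It differed by 1.41 to 2.43 without 1 mouse (exact permutation p of 0.0286 without a control mouse and 0.0571 without a PGE2-deficient mouse). The groups did not overlap in any of these fits, which have fewer assignments, so their p-values are coarse. It was 2.45 (exact p = 0.0857) without the pools holding markers and 2.09 (exact sign-flip p = 0.125, the smallest that 4 pairs allow) with the replicate block. The Cadm1 difference ran from −9.24 to 44.3 CPM without 1 mouse, and the sign turned without PGE2-deficient mouse 1. Where no value shows the cause of a change, the cause was not tested. Low counts per pool limit what single pools show for Xcr1, Ly75 and Cadm1.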

Other observations

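Some cDC1-associated genes and 1 binding partner, Cdh1, fell under the count filter with uneven counts between groups, and were named after their values were seen. Cd36, a scavenger receptor for lipids and dying cells, had 40 counts in the PGE2-deficient group and 6 in the control group (97.3 ± 74.5 and 14.7 ± 12 CPM, SD, n = 4 mice each). Cd81, a tetraspanin, had 68 and 14 counts (172 ± 168 and 31.1 ± 16.4 CPM). Tlr11, a receptor for microbial profilin, had 36 and 13 counts (78.9 ± 47.6 and 27.0 ± 26.1 CPM). Other cDC1-associated genes under the filter had lower means in the PGE2-deficient group. They were Nfil3 (64.6 ± 22.3 and 111 ± 21.3 CPM), Pdia5 (23.6 ± 16.8 and 46.3 ± 25.8 CPM) and Bcl6 (73.9 ± 33.2 and 84.4 ± 10.6 CPM). The rest of that list under the filter had higher means there. Cdh1, which encodes the E-cadherin bound by the Itgae product, had 7 counts in the PGE2-deficient group and 26 in the control group (12.4 ± 14.8 and 54.7 ± 55.0 CPM). None of these was tested.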
